A study of Drosophila melanogaster with 4 samples.

Results

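The ecdysteroid kinase-like genes form a large family of insect genes whose proteins share a kinase fold related to choline and aminoglycoside kinases (the DUF227 or CHK kinase-like domain). A list of 44 family members was searched for on arrays that compared *poly* mutant larvae with wild-type larvae, and 39 of them had a named probe, 1 probe each, among 11907 named genes in all. CG11891, CG11889, CG33509, CG33510 and CG33511 had no named probe here. The list was drawn up because 3 of its genes, CG13659, CG11893 and CG10562, had already been seen to rise strongly on these arrays. The ratios of the members below are therefore a description, and no member is given a p-value for its change.

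RNA of whole *poly* mutant larvae (genotype label poly05137/TM6B) and of whole wild-type Canton S larvae was set against each other on 4 2-colour arrays. Every array held a separate biological replicate of either genotype. Both genotypes carry the background label Canton S, and stocks were kept at 25°C with no treatment. The larvae were early in their last larval instar, the allele is a P-element insertion in the intron of *poly*, and the mutant stock is kept over the balancer TM6B. The sources used here do not say whether the larvae for the arrays were picked as homozygotes. The 2 strains were separate stocks, so the mutation and other differences between the strains cannot be told apart. On replicates 1 and 2 the mutant RNA was labelled with Cy5, and on replicates 3 and 4 with Cy3, which lets an equal dye effect cancel in the mean. Each value is a log2 ratio of *poly* over wild-type, in which 1 stands for a doubling. No absolute level of any gene was available, so the tissue label could not be set against marker levels.

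Ecdysteroids are the moulting hormones of insects. In the silkworm, the kinase that gave the family its name adds a phosphate to ecdysteroids, which turns them into an inactive store in the egg, and a phosphatase releases the active hormone again. Most of the fly members have no assigned substrate, and phosphorylation of plant or microbial compounds during detoxification has been proposed for some of them.

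The *poly* transcript itself (CG9829, now called *Elp6*) had log2 ratios of −1.49, −1.57, −1.69 and −1.79 on replicates 1 to 4. These values below 0 set the direction in which the columns were read, so they are no test of it. The median log2 ratio of all 14569 probes lay between −0.04 and 0.15 on the 4 arrays. Replicate 3 stood apart: its spread was the widest, and 3 measured glue genes of the salivary gland had ratios of 3.26 (*Sgs1*), 5.13 (*Sgs4*) and 5.55 (*Sgs5*) on it, against −0.25 to 0.27 on the other arrays.

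Among the 39 measured members the mean log2 ratio ran from −0.85 (CG10514) to 3.36 (CG11893), with a median of 0.32, against 0.04 over all named genes. Of these 39 genes 12 passed limma's threshold (adjusted p under 0.05 over all probes) as higher in *poly* larvae and 0 as lower, where 1.26% of all probes passed as higher and 1.13% as lower. Since the family was chosen on this contrast, nothing is read from that count. Without replicate 3 the threshold was passed by 12 members, 11 of them the same, and without replicate 1, 2 or 4 by 0 members (20, 21 and 21 at an unadjusted p under 0.05). The 12 that rose were CG11893, CG10562, CG13659, CG6830, CG31104, CG31288, CG31974, CG13658, CG9259, CG10550, CG16898 and CG31975. Leaving out the 3 genes that led to the list, 9 of 36 rose and the median was 0.22. A mean of 1 or more was reached by 14 members, and 0 members had a mean of −1 or less (1.74% and 1.84% of all probes). The ratios were above 0 on every array for 20 members and below 0 on every array for 5 (14.5% and 11.7% of all probes). In whole larvae, more RNA per cell and more cells of a type that expresses the gene cannot be told apart.

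**Figure D1:**
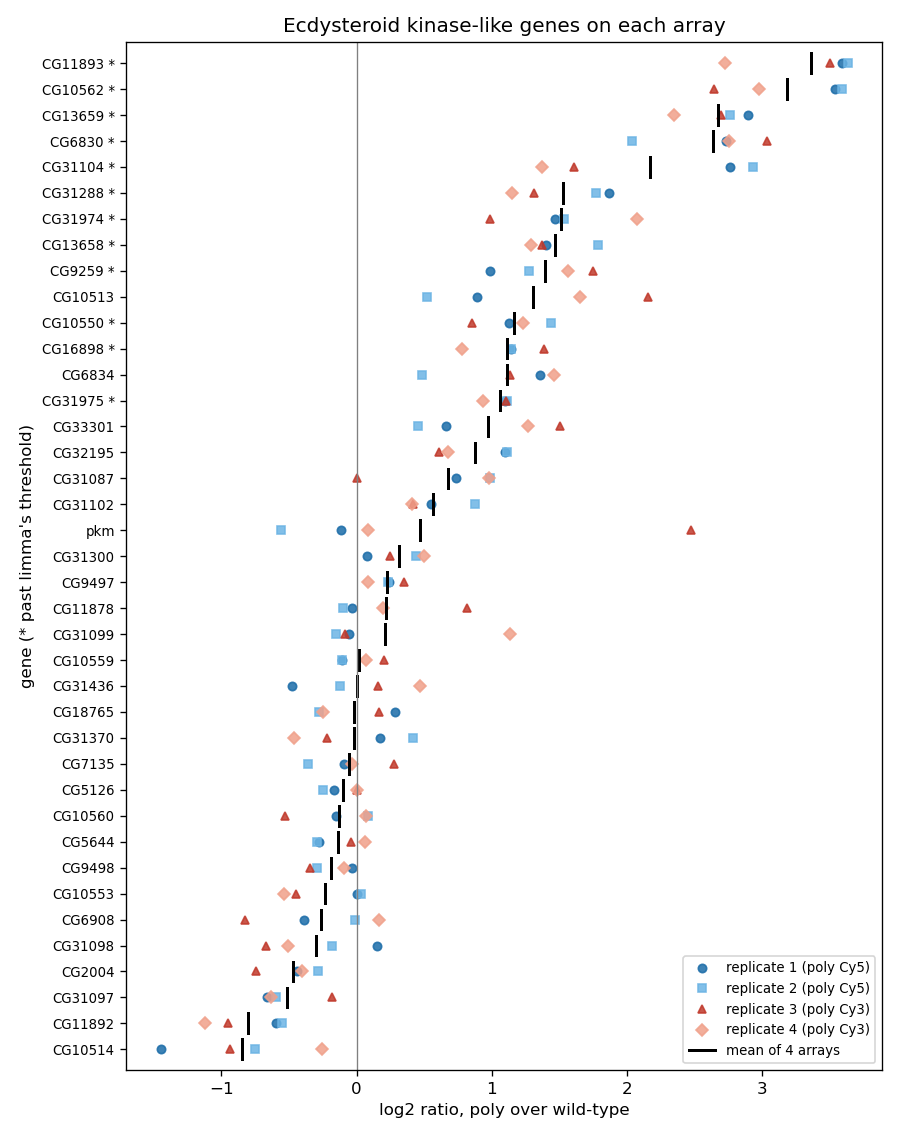
Log2 ratio of *poly* over wild-type (x axis) for each of the 39 measured family members (y axis, ordered by mean). Symbols are the 4 arrays and black bars their mean. An asterisk marks the 12 genes past limma's threshold, whose means run from 1.06 (CG31975) to 3.36 (CG11893).

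The 3 genes that led to the list had the highest means of the family. CG11893 had log2 ratios of 3.59, 3.63, 3.50 and 2.73 on replicates 1 to 4, and their mean was 3.36 ± 0.43 (SD, n = 4), or 10.3-fold. CG10562 had 3.54, 3.59, 2.64 and 2.98, a mean of 3.19 ± 0.46, or 9.10-fold. CG13659 had 2.89, 2.76, 2.69 and 2.35, a mean of 2.67 ± 0.23, or 6.38-fold. On each of the 4 arrays all 3 genes lay above 2, far from the median of all probes. Replicate 4 was the lowest of the arrays for CG11893 and CG13659, and replicate 3 for CG10562.

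CG6830 and CG31104 came next. CG6830 had ratios of 2.73, 2.03, 3.04 and 2.75 on replicates 1 to 4, and their mean was 2.64 ± 0.43 (SD, n = 4), or 6.22-fold, which differs from that of CG13659 by less than the SD of either gene. CG31104 had 2.76, 2.93, 1.61 and 1.37, a mean of 2.17 ± 0.79, or 4.50-fold. Its ratios fell into separate pairs, high on the arrays with *poly* in Cy5 and lower on those with *poly* in Cy3. It was the least firm of the 12 calls, since it did not pass with median centring, with the arrays scaled to one spread, with a robust prior or without replicate 3 (where its mean was 2.36).

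The other 7 genes that rose had means between 1.06 and 1.53. CG31288 had ratios of 1.87, 1.77, 1.31 and 1.15 on replicates 1 to 4, and their mean was 1.53 ± 0.35 (SD, n = 4), and CG13658 had 1.40, 1.79, 1.37 and 1.29, a mean of 1.46 ± 0.22. CG31974 had 1.47, 1.53, 0.99 and 2.07, a mean of 1.51 ± 0.44, highest on replicate 4. These 3 means lie within 1 SD of one another. CG9259 had 0.98, 1.27, 1.75 and 1.57, a mean of 1.39 ± 0.34, and was higher on both arrays with *poly* in Cy3. CG10550 had 1.13, 1.44, 0.85 and 1.23, a mean of 1.16 ± 0.25, and CG16898 had 1.14, 1.15, 1.39 and 0.78, a mean of 1.11 ± 0.25. CG31975 had 1.10, 1.11, 1.11 and 0.93, a mean of 1.06 ± 0.09, the smallest spread between arrays of all 39 members. A ratio near 1 on every array was thus enough to pass when the arrays differed little. CG31974 did not pass with a dye term, with median centring or with the arrays scaled to one spread. CG10550 did not pass with a dye term or with scaled arrays. CG16898 did not pass with a dye term, and CG31288 did not pass with scaled arrays.

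Both of the remaining members with a mean over 1 missed the threshold. CG10513 had ratios of 0.89, 0.52, 2.16 and 1.65 on replicates 1 to 4, and their mean was 1.30 ± 0.74 (SD, n = 4). CG6834 had 1.36, 0.48, 1.14 and 1.46, a mean of 1.11 ± 0.44. Each was lowest on replicate 2, and neither reached 0 on any array. A further 4 members had means between 0.56 and 0.97 without passing: CG33301 (0.97 ± 0.50), CG32195 (0.87 ± 0.27), CG31087 (0.68 ± 0.46) and CG31102 (0.56 ± 0.22). Without replicate 3, where its ratio was 0.000461, CG31087 passed, with a mean of 0.90. From CG11893 down to CG31102 the means thus formed a graded series, with no clear line between the genes that passed and those that did not.

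The remaining members lay near 0 or below it. A mean within 0.5 of 0 was found for 18 members, from −0.47 (CG2004) to 0.47 (*pkm*, CG1561). The value of *pkm* rests on replicate 3, with ratios of −0.12, −0.56, 2.47 and 0.08, and its mean without that array was −0.20. CG10559, CG31436, CG31370 and CG18765 had means between −0.02 and 0.02. The lowest means of the family belonged to CG10514 (−1.45, −0.75, −0.94 and −0.26 on replicates 1 to 4, mean −0.85 ± 0.49), CG11892 (−0.60, −0.55, −0.95 and −1.12, mean −0.80 ± 0.28) and CG31097 (−0.66, −0.59, −0.18 and −0.64, mean −0.52 ± 0.23). These 3 genes were below 0 on every array and did not pass the threshold.

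Position is a property that the choice of genes did not use. Of the 44 members, 24 follow one another on chromosome arm 3R in the order of their start sites, with no other gene of the RefSeq annotation between them. In this run 22 members were measured, 7 rose, 8 had a mean of 1 or more, and 7 had a mean below 0. The 7 that rose include the 3 genes that led to the list, without which 4 of 19 rose. Of all named genes on 3R, 1.64% passed as higher. The genes that rose did not form 1 block. From one end, CG11878 (0.22) and CG10513 (1.30) were followed by CG10514 (−0.85), CG11892 (−0.80) and CG31300 (0.32). Then came 3 neighbours that rose, CG31104, CG13658 and CG11893, and then CG31098 (−0.30), CG31102 (0.56) and CG31097 (−0.52). CG31288 and CG13659, which rose, stood next to each other ahead of CG31370 (−0.02) and CG31436 (0.01). CG10550 (1.16) was followed by 5 genes between −0.24 and 0.68, and CG10562 (3.19) closed the run.

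Neighbours in the run often had unlike ratios. Of the 21 pairs of neighbouring measured members, 12 differed by 1 or more in mean log2 ratio, and 15 differed in one direction on all 4 arrays. Among the 16 pairs without the 3 genes that led to the list, 7 differed by 1 or more and 10 in one direction on all 4 arrays. Of these 16, CG10514 minus CG10513 gave the difference with the largest size, with a mean of −2.15 ± 0.76 (SD, n = 4). CG31288 minus CG31097 came to 2.04 ± 0.49. Both genes of a pair rose in 3 of the 21 pairs. They were CG31104 with CG13658, CG13658 with CG11893, and CG31288 with CG13659. CG11893 and CG13659 are among the genes that led to the list. Pairs of other genes were not counted, so whether these counts are unusual was not tested. The probes of close relatives can share signal, which was not tested here.

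The genes on either side of the run were also read. The run holds the 3 genes chosen for their strong rises, so its range of ratios is not compared with theirs. For the 5 nearest measured genes on each side the mean ratios ran from −0.36 (CG11857) to 0.68 (*Kdsr*, 3-ketodihydrosphingosine reductase). None of these genes passed limma's threshold. Of all named genes on 3R, 1.64% passed as higher, so the lack of a call among so few genes says little. *CHKov1* and *CHKov2*, relatives of the family that are not on the list, are the next measured genes after CG10562. *CHKov1*, known for alleles linked to insecticide and virus resistance, had a mean of 0.40 ± 0.52 (SD, n = 4), and *CHKov2* had 0.38 ± 0.15 (adjusted p = 0.502 and 0.189 from limma).

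**Figure D2:**
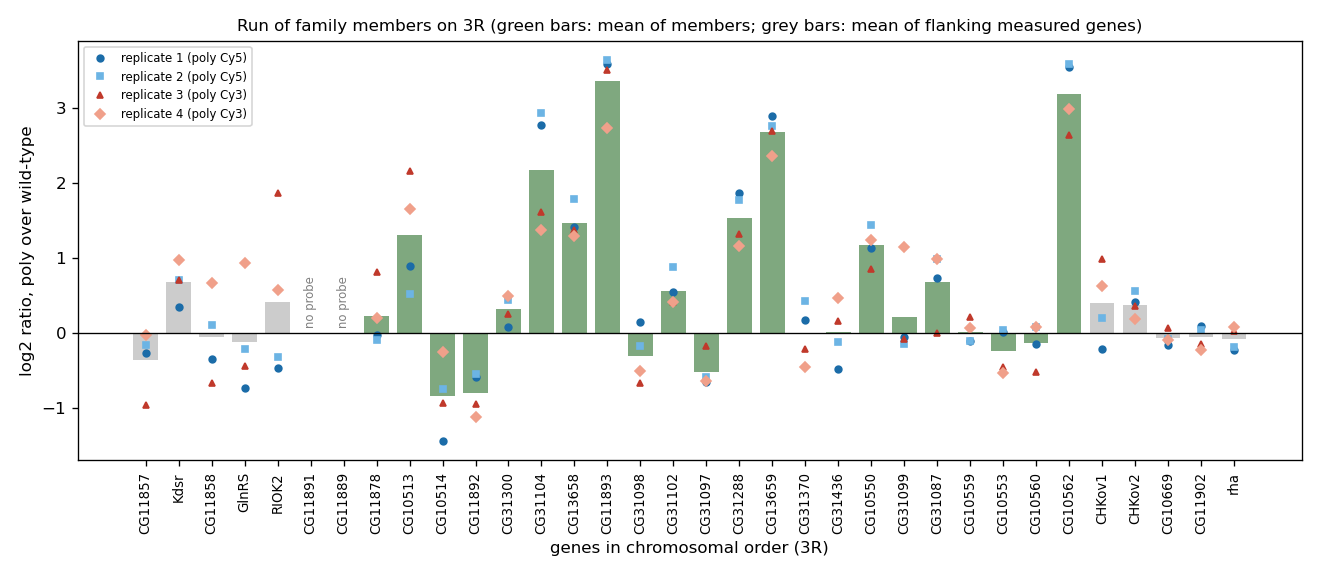
Log2 ratio of *poly* over wild-type (y axis) for the 24 neighbouring family members on 3R and the 5 nearest measured genes on each side, in chromosomal order (x axis, not to scale). Bars are means of 4 arrays, green for members and grey for flanking genes, and symbols are single arrays. Members with means from 1.16 to 3.36 stand alone or in short groups among members with lower means.

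The other members lay in small groups or alone. On 3R, CG6830 (2.64) and CG6834 (1.11) stand beside CG6908 (−0.27) and CG18765 (−0.02). On 2L both genes of the pair CG31975 (1.06) and CG31974 (1.51) rose, while the pair CG9497 (0.22) and CG9498 (−0.19) lay near 0. CG9259 (1.39), also on 2L, was the measured gene of a group of 4. CG16898 rose and is the listed member on 2R. The *poly* gene lies on 3R, where 8 of 26 measured members rose (1.64% of all named genes there). These 8 include the 3 genes that led to the list, so nothing is read from that count. On 2L 3 of 7 rose (1.41%) and on 2R 1 of 1 (2.01%). Members above 1 were therefore found on 3R, 2L and 2R, and 0 of 3 on X (1.07%) and 0 of 2 on 3L (0.943%) passed. The highest ratio on 3L was that of CG32195 (0.87) and on X that of *pkm* (0.47).

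The members kept much the same order from array to array. Across the 39 genes, which are not independent replicates, Spearman's rank correlation between arrays ran from 0.73 (replicates 2 and 3) to 0.92 (replicates 1 and 2). Pearson's r ran from 0.76 to 0.96 for the same pairs, and without the 3 genes that led to the list from 0.63 to 0.93. Over all probes Pearson's r ran from −0.18 to 0.62 for these pairs. The list was drawn up from strong rises on these same arrays, so nothing is read from the higher r among the members. The median of the members was 0.24, 0.42, 0.35 and 0.47 on replicates 1 to 4, and without those 3 genes it was 0.16, 0.16, 0.26 and 0.30.

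With balanced dyes, the difference between the dye orientations is independent of the mean that led to the list if the arrays are equally precise. The array weights were 2.10, 2.44, 0.29 and 0.68 on replicates 1 to 4, so independence cannot be assumed. None of the 39 members differed between the orientations at an adjusted p under 0.05 (limma, lowest adjusted p = 0.497), as for 0% of all probes. At an unadjusted p under 0.05, 7 of the 39 members differed, where 9.19% of all probes did. CG31104 had a mean ratio of 2.85 with *poly* in Cy5 and 1.49 with *poly* in Cy3. CG10513 went the other way, with 0.70 with *poly* in Cy5 and 1.90 with *poly* in Cy3, and so did CG33301, with 0.55 with *poly* in Cy5 and 1.38 with *poly* in Cy3. The others of the 7 were CG10562, CG31288, CG31370 and CG10553. All 12 genes that rose had a mean of at least 1.02 in each orientation.

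**Figure D3:**
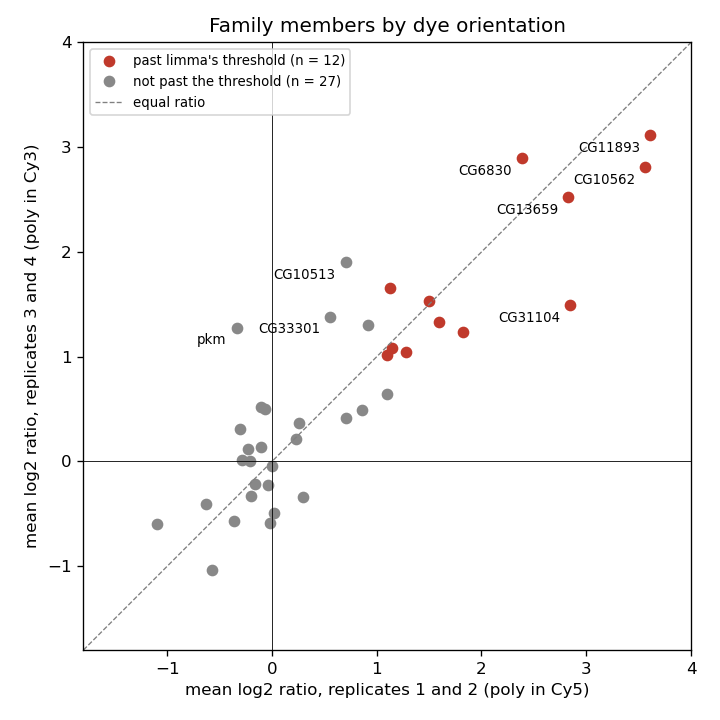
Mean log2 ratio of *poly* over wild-type with *poly* in Cy5 (x axis, replicates 1 and 2) and with *poly* in Cy3 (y axis, replicates 3 and 4) for the 39 measured members. Red points are the 12 genes past limma's threshold, and the dashed line marks equal ratios. CG31104 lies below the line at 2.85 and 1.49, CG10513 above it at 0.70 and 1.90.

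Genes that make, carry, sense or inactivate ecdysteroids were read from a separate list. Of its 27 genes 17 were measured, and 0 passed limma's threshold in either direction. Over all probes, 1.26% passed as higher and 1.13% as lower, so a list of 17 genes need not hold any call. At an unadjusted p under 0.05 from limma there were 5 of the 17 genes, and 2341 of 14569 probes. With array weights 1 gene was higher and 2 were lower. No named probe was found for *nvd*, *spo*, *spok*, *phm*, *shd*, *Eip74EF*, *Eip75B*, *Hr4*, *MsrA* and *Ldh*. The median log2 ratio of the measured genes was −0.12. The strongest were *Cyp18a1*, whose enzyme inactivates ecdysteroids by oxidation at carbon 26, with −0.82, −0.55, −0.51 and −0.90 on replicates 1 to 4 (mean −0.69 ± 0.19, SD, n = 4, adjusted p = 0.0653), and *ImpL2*, an ecdysone-inducible gene for an insulin-binding protein, with 0.75, 0.44, 0.74 and 0.48 (mean 0.60 ± 0.17, adjusted p = 0.078). Both kept 1 sign on every array and missed the threshold over all probes.

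By role, the measured genes of synthesis were *sro* (0.14), *dib* (−0.14), *sad* (−0.12) and *Cyp6t3* (−0.39 ± 0.22, adjusted p = 0.233). The importer *Oatp74D* had a mean of −0.23 and *Atet*, needed for ecdysone release from the gland, one of −0.22. The receptor subunits *EcR* (0.02) and *usp* (−0.06) lay near 0, and the nuclear receptor gene *Hr39* had −0.38 ± 0.12 (adjusted p = 0.167 from limma). Among the other targets, *br* had ratios of −0.65, −0.61, 0.02 and −0.37 on replicates 1 to 4. Its mean was −0.40 ± 0.31 (adjusted p = 0.295 from limma). The means of *ftz-f1* and *Hr3* were −0.13 and −0.05. *Eo*, ecdysone oxidase, had 0.13. *Epp* (CG13604), the fly relative of the silkworm phosphatase that reverses the kinase's reaction, had ratios of 0.04, −1.68, 1.95 and 0.27 and a mean of 0.15 ± 1.49. For *Epp* the arrays disagreed in sign, so no direction can be given. The highest mean among the measured genes of this list was 0.60, where 1.74% of all probes had a mean of 1 or more.

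**Figure D4:**
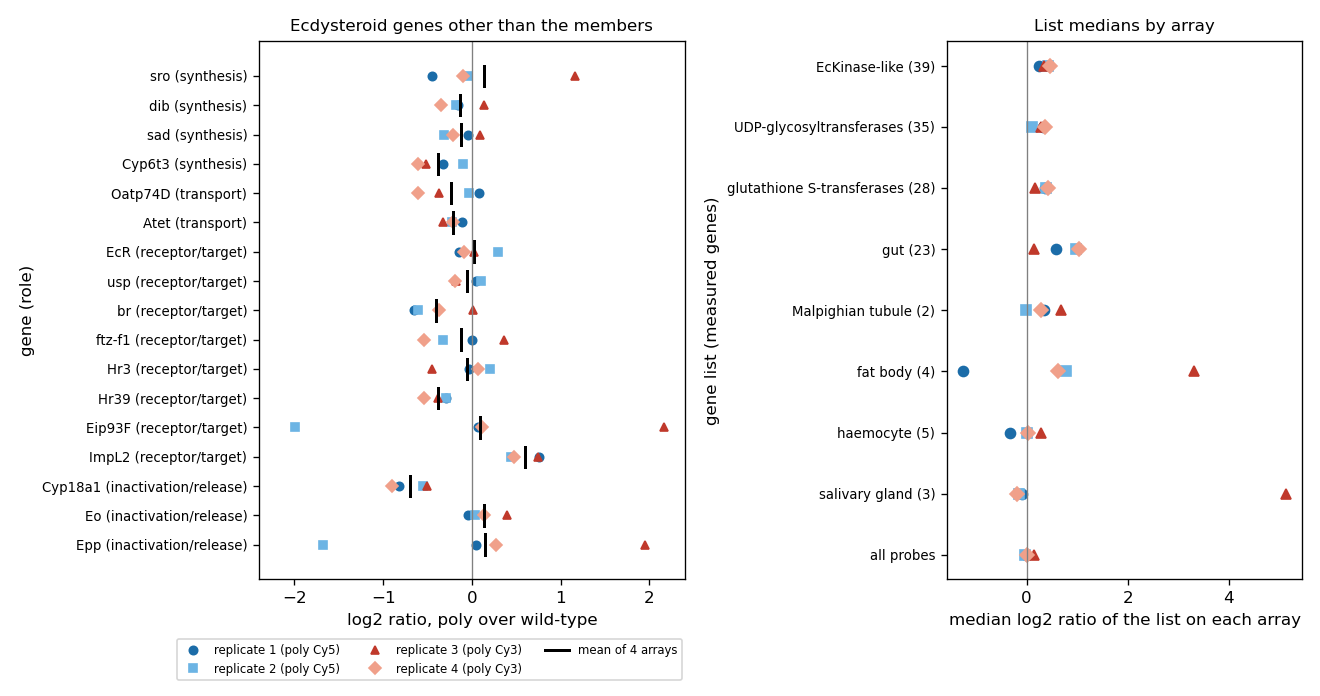
Left, log2 ratio of *poly* over wild-type (x axis) of 17 measured ecdysteroid genes by role (y axis), with symbols for the arrays and black bars for means, which run from −0.69 to 0.60. Right, median log2 ratio of each gene list on each array (x axis), with the number of measured genes in brackets. The salivary gland list lies at 5.13 on replicate 3 and between −0.19 and −0.09 on the others.

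Other enzymes that attach a group to small molecules were also mixed. Of 35 UDP-glycosyltransferases 4 rose and 1 fell, with a median of 0.34. Of 28 glutathione S-transferases 4 rose and 0 fell, with a median of 0.17. Over all probes, 1.26% passed as higher and 1.13% as lower. Mean ratios of the glycosyltransferases ran from −1.32 (*Ugt37C1*) to 4.58 (*Ugt37A3*), a value above the 3.36 of CG11893. Those of the glutathione S-transferases ran from −0.57 (*GstD3*) to 3.40 (*GstD9*). These lists were taken by symbol, and no difference from the kinase-like family was tested. A relative on 2R, *JhI-26*, named for its induction by juvenile hormone, had ratios of 0.69, 1.07, 1.10 and 1.5 on replicates 1 to 4 (mean 1.09 ± 0.33, SD, n = 4, adjusted p = 0.0469 from limma), and CG13813, another relative, had a mean of −0.10 ± 0.34 (adjusted p = 0.851). These relatives were chosen after their values were seen.

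Markers of tissues were read from further lists. Over all probes, 1.26% passed as higher and 1.13% as lower. Of 23 measured digestive proteases of the gut (trypsins and Jonah genes), 4 passed as higher in *poly* larvae and 0 as lower. Those that passed were *iotaTry*, *Jon65Ai*, *Jon66Ci* and *Jon66Cii*. The medians of the gut list were 0.57, 0.97, 0.15 and 1.03 on replicates 1 to 4. Of the Malpighian tubule markers *Irk3* had a mean of −0.02 and *ZnT35C* one of 0.67. The 4 measured fat body genes varied widely between arrays, from a list median of −1.25 on replicate 1 to 3.31 on replicate 3. Of 5 haemocyte genes *NimC1*, a phagocytosis receptor, passed as higher (mean 1.5 ± 0.52, SD, n = 4, adjusted p = 0.0492), and the median of the list was 0.01. The part of these tissues in the ratios of the kinase-like genes was not tested.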

How the data were processed

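The deposited log2 ratios, 1 per probe and array, were made by the authors from long-oligonucleotide 2-colour arrays, with spots quantified in Dapple and normalized with vsn. The sources used here do not give the settings of vsn or the spot filters. No scanner intensities were read, which leaves signal over background unknown, and the small number of arrays limits the precision. Each column was read as *poly* over wild-type, with none turned, since the *poly* transcript lies below 0 in all 4. Probes were named through the platform's annotation and symbols updated through RefSeq (Release 6 plus ISO1 MT), used for names, chromosomes and gene order only: 12011 probes by gene identifier, 107 by transcript accession and 539 by the annotation's symbol. Of the 14569 probes, 12657 were named.

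Each probe was tested against 0 with limma 3.58.1 in R 4.3.3 in a two-sided test (lmFit, then eBayes), and p-values were adjusted over all probes by the method of Benjamini and Hochberg. Genes with several probes are given by the probe with the smallest p. Members were grouped by position when at most 5 other genes lay between neighbours. Values on each array are given for members with a mean of 1 or more in size and for those whose arrays a statement turns on. For ecdysteroid genes the 4 with the smallest p are given in detail. The members and lists were chosen with earlier results of these data known. As alternatives, a dye term, median centring, arrays scaled to one spread, probes averaged per gene, array weights, a robust prior and leaving out each replicate were tried. Tables and plots were made in Python 3.11.15 (numpy 2.4.6, pandas 2.3.3, matplotlib 3.10.9).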

Additional observations from a re-analysis of the deposited data

Results flagged for a closer look

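In 4 of the 39 members, 1 array lay apart from the other arrays by more than Dixon's critical value for the gap over the range, which chance gives in about 1 of 20 groups. CG11893 had a log2 ratio of 2.73 on replicate 4, against 3.50 to 3.63 on the others. CG31975 had 0.93 on replicate 4, against 1.10 to 1.11. CG31097 had −0.18 on replicate 3, against −0.66 to −0.59. CG31099 had 1.14 on replicate 4, against −0.15 to −0.06 on the others, so that its mean of 0.21 comes from that array alone.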

How the results depend on the processing

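Over all probes, 184 were higher and 165 lower in *poly* larvae. The counts were 102 and 74 with a dye term, 90 and 149 with arrays scaled to one spread, and 708 and 715 with array weights. Leaving out a replicate gave 0 to 236 higher and 0 to 163 lower probes, with 0 without replicate 1, 2 or 4 (1529, 1478 and 1906 probes at an unadjusted p under 0.05 from limma). Of the 12 members that rose, 0 then passed without replicate 1, 2 or 4 (20, 21 and 21 members at an unadjusted p under 0.05), and without replicate 3 12 members passed, 11 of them the same. Other settings called 8 to 12 members as higher, and array weights called 15 higher and 3 lower (CG10514, CG11892 and CG31097). With array weights 1 ecdysteroid gene was higher and 2 were lower, against 0 in every other setting. The dye difference was called for 0 probes, and for 0 to 102 higher and 0 to 1050 lower when a replicate was left out, where the calls came without replicate 4. The median of the members was 0.32, and the alternatives above gave 0.22 (array weights) to 0.39 (without replicate 1). It was 0.49 on the arrays with *poly* in Cy3 alone and 0.26 on those with *poly* in Cy5 alone, settings chosen after seeing the data. The cause of these changes was not tested. Under every setting the 12 genes kept ratios of 1.02 or more. No intensities were used, so dim probes could not be set apart.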

Other observations

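The uneven ratios of *pkm* were shared by genes outside the family, which were chosen after their values were seen. On replicates 2 and 3, *pkm* had log2 ratios of −0.56 and 2.47, *Epp* had −1.68 and 1.95, and *Eip93F*, a late ecdysone-response gene, had −2.00 and 2.17. On replicates 1 and 4 these genes lay between −0.12 and 0.27.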
